A study of Mus musculus with 30 samples.

Results

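Wild type (WT) back skin was followed here from day 2 to day 4 after the last of 3 applications of TPA, a phorbol ester that irritates the skin. All 6 arrays of these days were compared, 3 at each day, of 30 arrays in the series, and the members are all probe sets of the deposited matrix, with no choice by value. The mice were female, 8 to 12 weeks old, of strain 129–C57BL/6 and WT at the D6 locus, and both groups had received 50 μM TPA 3 times at intervals of 24 hours on shaved dorsal skin. The control arrays of day 0, which the labels call untreated and the methods describe as acetone-treated, and the D6-deficient mice of the same strain, sex and age range killed at the same days after the same treatment, enter only where they are named. D6 (Ccbp2, now Ackr2) is a receptor that takes up and degrades inflammatory CC chemokines. The question was how transcript levels in WT skin moved between these days.

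TPA activates protein kinase C in keratinocytes, and treated skin takes up neutrophils and other leukocytes while the epidermis thickens. Neutrophils are drawn by CXC chemokines that act on Cxcr2, and are formed and released under granulocyte colony-stimulating factor (Csf3). Keratinocytes that leave the basal layer exchange keratins 5 and 14 for keratins 1 and 10, and then make filaggrin, loricrin and the other proteins of the cornified layer.

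Whole dorsal skin was measured on Affymetrix mouse expression arrays, on which several probes form a probe set for a transcript. Levels are log2 intensities, so that a difference of 1 is a doubling, and levels of different probe sets were not compared. Of 36029 probe sets tested, limma called 417, or 1.16%, requiring more than a 3-fold change besides a Benjamini-Hochberg adjusted p under 0.05. Of these 246 (0.683%) were higher at day 4 and 171 (0.475%) lower, and in 411 of the 417 the 3 arrays of day 4 did not overlap with the 3 of day 2, as was the case for 33.5% of all probe sets tested. At the adjusted p alone 2578 probe sets (7.16%) rose and 2661 (7.39%) fell, and the median change over all was 0.0032. Below, a gene that rose or fell passed the adjusted p, and a called gene also passed the fold.

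**Figure D1:**
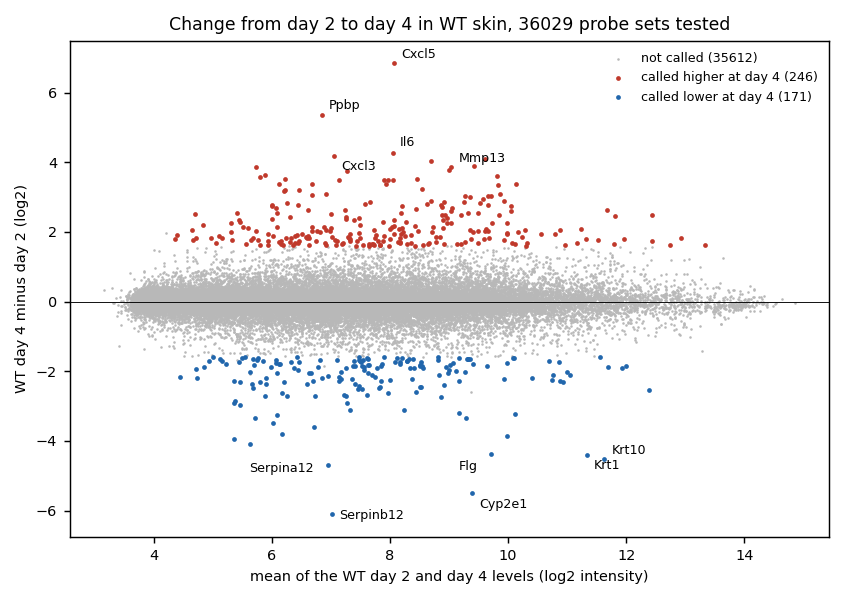
Difference between the WT means of day 4 and day 2 (log2, y axis) against their mean level (log2 intensity, x axis) for each of the 36029 probe sets tested. Red points are the 246 called higher and blue points the 171 called lower at day 4, and the extremes are Cxcl5 at 6.84 and Serpinb12 at -6.10.

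The basal keratins Krt5 (12.24 to 13.48) and Krt14 (13.76 to 14.20) were bright on all 6 arrays, and the liver transcripts Apoa1 (4.83 to 5.51) and Ttr (5.43 to 5.74) were dim, while the liver transcript Alb was at 6.31 to 8.47. WT day 2 replicate 2 stood apart from the other arrays of its day, with the highest level of 21 of 29 neutrophil genes and a median over them of 8.11 against 6.32 and 6.11. WT day 4 replicate 2 had the highest level of its day in 7 of 9 epidermal keratins, with a median of 10.98 against 9.60 and 8.54, and the lowest median of the neutrophil genes, 9.12 against 9.75 and 9.88. Without WT day 2 replicate 2 the 24 genes of largest change described below kept their direction, as they did without each of the other 5 arrays. Their choice fixed this outcome, since they were taken only from genes in which the days do not overlap. By their spiked hybridization controls 17 arrays of the series were brighter and 13 dimmer, and each day held 2 brighter arrays and 1 dimmer array, WT day 2 replicate 1 and WT day 4 replicate 2. Among the brighter arrays alone 485 probe sets were called (276 higher, 209 lower), and between the dimmer arrays, 1 against 1 with the spread of the other groups, 140 (103 and 37).

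Of the 12 largest increases 5 were in chemokines for neutrophils and their growth factor Csf3. Cxcl5, a ligand of Cxcr2, was at 4.39, 5.84 and 3.70 at day 2 and at 11.60, 11.04 and 11.82 at day 4. The groups lay far apart, and the change was 6.84 (SE 0.36, adjusted p = 1.2e-11). Its levels at day 2 lay near the lowest mean that the filter kept, 3.72, and no background limit was available, so no fold is given for it. The same limit holds for the changes below of Ppbp, Csf3, Olfm4, Il24 and Cd177. Their day 2 means were lower than that of Cxcl5, at 4.16, 4.08, 3.80, 4.01 and 4.47. Ppbp, the precursor of a platelet and leukocyte chemokine, was at 4.03, 4.55 and 3.92 and then at 9.68, 8.53 and 10.38, a change of 5.36 (SE 0.27, adjusted p = 6.5e-12). Cxcl3, another Cxcr2 ligand, was at 4.67, 6.67 and 3.55 and then at 9.08, 8.16 and 10.17, a change of 4.18 (SE 0.53, adjusted p = 5.0e-06). At day 2 its highest array was replicate 2, as for Cxcl5. Cxcl1 changed by 3.78 on the probe set of largest change (7.72, 7.30 and 6.32, then 10.96, 10.44 and 11.28) and by 3.37 on its brightest.

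Of the 6 neutrophil-attracting CXC chemokines tested, 4 rose and all 4 were called, with a median change of 3.77 over the 6. Counted by the brightest probe set of each gene, 8.23% of 17772 genes rose, 9.72% fell, 0.940% were called higher and 0.743% lower. Cxcl2 and Cxcl15 did not pass, at 0.18 and 0.17. At day 6 the means were 3.14 for Cxcl5, 4.34 for Ppbp and 3.60 for Cxcl3, beside day 0 means of 3.04, 3.85 and 2.97. In whole skin, more cells of a type and more RNA per cell cannot be told apart.

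**Figure D2:**
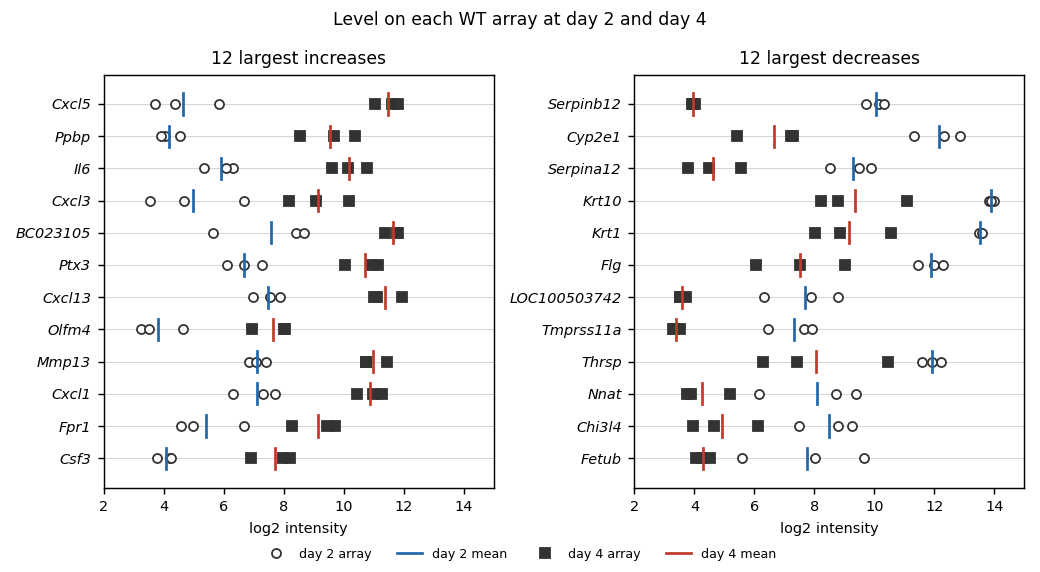
Level on each WT array (log2 intensity, x axis) of the 12 genes with the largest increase and the 12 with the largest decrease. Open circles are day 2 arrays, filled squares day 4 arrays and bars the means of 3. The genes were taken only from called genes in which the days do not overlap.

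Granulocyte colony-stimulating factor, Csf3, was at 3.76, 4.22 and 4.25 at day 2, near its day 0 mean of 3.67, and at 7.96, 6.92 and 8.21 at day 4 (change 3.62, SE 0.26, adjusted p = 2.5e-09). The formyl peptide receptors, which neutrophils and monocytes carry, rose with it. Fpr1 went from 4.96, 6.68 and 4.57 to 9.45, 8.27 and 9.70, a change of 3.74 (SE 0.42, adjusted p = 1.3e-06), and Fpr2 from 7.91, 9.12 and 6.99 to 11.80, 10.98 and 12.09, a change of 3.61 (SE 0.40, adjusted p = 9.5e-07). Of 29 neutrophil genes, 19 rose, 15 of them called, and none fell, with a median change of 1.65. Among them were Cd177, a surface protein of neutrophils (3.51), Mmp8, neutrophil collagenase (3.48), and Clec4e, a receptor for microbial and cell-death glycolipids (3.23). Olfm4, a granule protein of some neutrophils, was outside this list and changed by 3.86 (3.24, 4.65 and 3.51, then 8.00, 6.93 and 8.04).

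Not all neutrophil transcripts moved. S100a8 and S100a9, which inflamed keratinocytes make as well, changed by 0.12 and 0.07, and Stfa3 and Stfa2l1 by -0.51 and -0.46, none of them past the test. The genes of primary granules, Mpo (0.27), Elane (-0.14), Ctsg (-0.31) and Prtn3 (1.21), did not pass either. The receptor of these chemokines, Cxcr2, rose by 2.01 (7.17, 7.52 and 6.93, then 9.44, 8.63 and 9.59). Among the 16 chemokine receptors tested 4 rose and 3 fell, and the largest change was that of Ccr7, which guides dendritic cells and T cells to lymph nodes, at 3.48 (5.42, 5.63 and 5.12, then 9.04, 8.57 and 9.01). Ccr1 (2.49) also rose, and Ccr6, the receptor of Ccl20, fell by 1.43. The count of 3 receptors that fell was 1 without WT day 2 replicate 3, WT day 4 replicate 1 or WT day 4 replicate 3.

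Promoters of 5 genes with large increases are printed to show what precedes these starts, as 250 bases before the start of the transcript from the RefSeq table of GRCm38.p6. Cxcl1 is at chr5:90890995-90891244 on the plus strand, Cxcl3 at chr5:90785851-90786100 on the plus strand, Il6 at chr5:30012864-30013113 on the plus strand, Mmp13 at chr9:7272264-7272513 on the plus strand and Ppbp at chr5:90768268-90768517 on the plus strand. Capitals mark matches, on either strand, to an AP-1 (TPA response) motif, TGANTCA, an NF-κB motif, GGGA and TTCC with any 2 bases between, a C/EBP motif, TTGCNNAA, and an interferon response (ISRE) motif, GAAA and again GAAA with any 2 bases between.
Cxcl1: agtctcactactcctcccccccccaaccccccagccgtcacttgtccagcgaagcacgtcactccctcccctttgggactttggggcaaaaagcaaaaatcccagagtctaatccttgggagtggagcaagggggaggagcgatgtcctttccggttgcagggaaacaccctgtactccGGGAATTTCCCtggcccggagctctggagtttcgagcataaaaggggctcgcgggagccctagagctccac
Cxcl3: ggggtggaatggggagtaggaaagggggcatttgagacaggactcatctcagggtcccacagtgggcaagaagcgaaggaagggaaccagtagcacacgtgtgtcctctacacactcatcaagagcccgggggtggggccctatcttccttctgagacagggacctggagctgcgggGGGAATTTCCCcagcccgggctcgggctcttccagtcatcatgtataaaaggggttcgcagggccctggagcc
Il6: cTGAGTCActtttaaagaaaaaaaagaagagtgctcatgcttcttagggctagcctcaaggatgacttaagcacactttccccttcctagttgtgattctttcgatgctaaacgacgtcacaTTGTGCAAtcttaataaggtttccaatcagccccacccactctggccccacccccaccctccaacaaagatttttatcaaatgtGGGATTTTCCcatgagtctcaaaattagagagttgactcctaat
Mmp13: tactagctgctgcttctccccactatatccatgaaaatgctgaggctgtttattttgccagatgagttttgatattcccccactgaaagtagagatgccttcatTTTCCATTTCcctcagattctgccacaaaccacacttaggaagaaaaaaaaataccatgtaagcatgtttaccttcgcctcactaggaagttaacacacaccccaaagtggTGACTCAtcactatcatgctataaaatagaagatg
Ppbp: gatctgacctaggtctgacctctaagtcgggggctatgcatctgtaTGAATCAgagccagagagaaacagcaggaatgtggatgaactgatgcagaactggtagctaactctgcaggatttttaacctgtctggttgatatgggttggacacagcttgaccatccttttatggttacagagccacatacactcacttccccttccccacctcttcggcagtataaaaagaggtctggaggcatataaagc
Ppbp held AP-1 letters 204 bases before its start and no NF-κB letters. Cxcl1 and Cxcl3 each held the NF-κB letters on both strands, in matches that overlap and begin 71 and 70 bases before the start in Cxcl1 and 73 and 72 in Cxcl3. Il6 held NF-κB letters 44, C/EBP letters 128 and AP-1 letters 249 bases before its start. Mmp13 held AP-1 letters 35 bases before its start and the ISRE letters 146 bases before it. A promoter was in the table for 146 of the 192 genes called higher and 103 of the 140 called lower. The NF-κB letters were in 3.4% of the former, 1.0% of the latter and 1.4% of all 27025 genes in the table. The C/EBP letters were in 22.6%, 19.4% and 10.8%, the AP-1 letters in 13.7%, 16.5% and 7.8%, and the ISRE letters in 6.8%, 6.8% and 3.5%. These are matches of letters, given as a description.

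Chemokines for monocytes, eosinophils and T cells rose as well, while Ccl20 fell. Of 14 inflammatory CC chemokines, which D6 binds in part, 10 rose, 7 of them called, and 1 fell, with a median change of 1.68. Ccl24, an eosinophil chemokine, went from 8.20, 7.55 and 8.70 to 12.01, 11.01 and 11.47 (change 3.35, SE 0.45, adjusted p = 1.1e-05). The monocyte chemokines Ccl2 and Ccl7 changed by 2.85 and 3.02. Ccl2 varied little between the mice of a day, at 7.96, 7.63 and 7.89 and then at 10.65, 10.59 and 10.78. Ccl3 was at 4.79, 7.42 and 5.21 at day 2 and 7.57, 7.95 and 8.33 at day 4, so that replicate 2 of day 2 came close to the day 4 arrays (change 2.14, SE 0.44, adjusted p = 0.0014). Ccl20, the ligand of Ccr6, was at 9.50, 7.28 and 9.46 and then at 6.46, 6.88 and 6.61 (change -2.10, SE 0.37, adjusted p = 0.00027). Cxcl9, an interferon-induced chemokine for T cells, rose by 2.90 and Cxcl13, a chemokine for B cells, by 3.89 (6.97, 7.89 and 7.55, then 11.12, 11.02 and 11.95).

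Among cytokines, Il6 had the largest increase. It was at 6.32, 6.09 and 5.35 at day 2 and at 10.15, 9.60 and 10.76 at day 4, a change of 4.25 (SE 0.39, 19.0-fold, adjusted p = 9.8e-08), and at 5.13 at day 6. Of 13 genes of the IL-6 family and its SOCS inhibitors 9 rose and none fell, among them Osm (1.61), its receptor Osmr (1.08) and Socs3, an inhibitor that IL-6 induces, at 2.05 (9.27, 9.54 and 8.97, then 11.43, 11.15 and 11.36). Ptx3, a soluble pattern receptor of the acute phase, rose by 4.02 on its brighter probe set (6.11, 6.67 and 7.28, then 10.94, 10.03 and 11.15), while its dimmer probe set was at 0.01. Il24, a member of the IL-20 family, rose by 3.58 with no overlap between the days, and Il20rb, a chain of its receptors, fell by 1.84. Of 10 cytokines and receptors of the IL-17, IL-22 and IL-20 groups 2 rose, the other being the IL-17 receptor Il17ra (1.27), and 3 fell, of which 1 passed without WT day 2 replicate 1, WT day 2 replicate 2 or WT day 4 replicate 3. Il20 itself was at -0.65 (adjusted p = 0.16) and Il17a at -0.65 (adjusted p = 0.36).

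The IL-1 family divided by direction. Of 16 members and receptors 6 rose and 6 fell. Il1b, made mainly by leukocytes, rose by 1.63 (9.88, 11.17 and 9.39, then 11.70, 11.79 and 11.84, adjusted p = 0.00088), and Il33, an alarmin held in nuclei, by 1.93 (9.73, 10.14 and 8.92, then 11.47, 11.10 and 12.00). Il1a, which keratinocytes store, fell by 1.63 (9.01, 7.74 and 8.53, then 6.71, 6.75 and 6.94, adjusted p = 0.00027). Il1f6, now Il36a, a keratinocyte cytokine, fell by 1.91 (12.98, 12.79 and 12.90, then 11.02, 10.88 and 11.06). The signalling receptor Il1r1 rose by 1.59 and the decoy receptor Il1r2 by 1.56. Tnf was at 0.25 (adjusted p = 0.23) and Il15 at 0.05 (adjusted p = 0.93).

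Of 13 genes of type 2 cytokines and alternatively activated macrophages 5 rose and 1 fell. Arg1, arginase, rose by 2.59 (7.92, 10.32 and 8.00, then 11.52, 11.05 and 11.46), Chi3l3, now Chil3, by 2.55, and the receptor chain Il4ra by 2.25. Chi3l4, now Chil4, a chitinase-like protein of close sequence, fell by 3.59 (9.25, 7.48 and 8.77, then 4.66, 6.12 and 3.94, adjusted p = 0.0036), and since it is so like Chi3l3 the probes of these genes may share transcripts. The cytokines Il4 (0.12), Il5 (0.31) and Il13 (0.53) did not pass. Of 24 macrophage and monocyte genes 8 rose and 7 fell, with a median of 0.02. The Fc receptors Fcgr4 (2.34) and Fcgr1 (1.55) and the scavenger receptors Msr1 (1.53) and Cd163 (1.27) were among those that rose, and Csf1r (-0.77), Lyz2 (-0.78) and Gpnmb (-1.91) among those that fell.

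Of 16 Langerhans and dendritic cell genes 7 fell and 4 rose, and none was called. Among the brighter arrays alone 1 fell and 1 rose. Cd207, which encodes langerin, was at 9.26, 7.93 and 9.32 and then at 7.33, 7.49 and 7.28, a change of -1.47 (adjusted p = 0.012), which was -1.25 (adjusted p = 0.066) without WT day 2 replicate 1 and -1.22 (adjusted p = 0.077) without WT day 2 replicate 3. The MHC class II genes H2-Eb1 (-0.70) and H2-DMa (-0.96) fell, and the costimulatory Cd80 (0.82) and Cd83 (0.87) rose. The count of 7 was 4 without WT day 2 replicate 1 or WT day 2 replicate 3, and the count of 4 was 2 without WT day 4 replicate 1 or WT day 4 replicate 3. Of 26 T and NK cell genes 2 rose, the granzymes Gzmb (1.73) and Gzma (1.62), and 3 fell, among them Cd4 (-0.69). Both counts were near the shares over all genes, 8.23% that rose and 9.72% that fell. Without WT day 2 replicate 2 Gzma was at 1.23 (adjusted p = 0.064), and 1 gene fell without each of 5 arrays, all but WT day 4 replicate 2. The histamine-forming enzyme Hdc (2.05) and the basophil protease Mcpt8 (2.04) rose among 11 mast cell genes, while the mast cell tryptase Tpsb2 fell by 0.85. Mcpt8 was at 1.69 (adjusted p = 0.063) without WT day 4 replicate 3, and Tpsb2 at -0.62 (adjusted p = 0.073) without WT day 4 replicate 1.

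**Figure D3:**
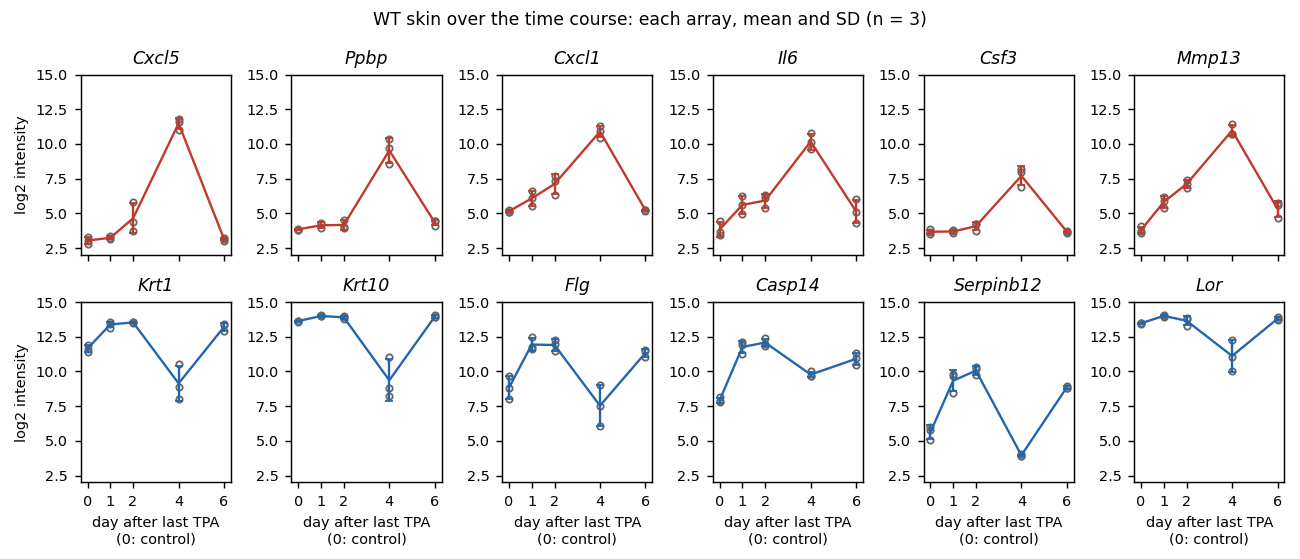
Levels of 12 genes in WT skin (log2 intensity, y axis) at days 0, 1, 2, 4 and 6 (x axis, day 0 being controls). Circles are single arrays, lines join the means of 3 and bars are SDs. The 6 inflammatory genes in red have their highest mean at day 4, and the 6 epidermal genes in blue are lower at day 4 than at day 2 and day 6.

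Some genes of the differentiated epidermis were among the largest decreases, and others did not pass the test. Serpinb12, an inhibitor of serine proteases, had the largest decrease. It was at 10.14, 10.31 and 9.72 at day 2 and at 3.94, 4.02 and 3.91 at day 4, a change of -6.10 (SE 0.40, adjusted p = 5.1e-10), with a mean of 5.62 at day 0 and 8.86 at day 6. Its day 4 levels too lay near the lowest mean kept, so no fold is given. The changes below of Serpina12, Mt4, Gsta2 and the probe set shared by Il22 and Iltifb have the same limit. Their day 4 means were 4.61, 4.44, 3.96 and 3.77. The suprabasal keratin Krt10 was at 13.99, 13.81 and 13.89 and then at 8.80, 11.07 and 8.21 (change -4.53, SE 0.42, 23.2-fold, adjusted p = 1.2e-07). Its partner Krt1 was at 13.54, 13.48 and 13.58 and then at 8.84, 10.54 and 8.03 (change -4.40, SE 0.48, adjusted p = 8.7e-07). The mice of day 2 were almost equal in both genes, and those of day 4 spread over more than 2 log2 units with replicate 2 the highest. Among the brighter arrays alone the change of Krt10 was -5.34, and between the dimmer arrays -2.92.

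Of 9 epidermal keratins tested 5 fell, 3 of them called, and none rose. Krt78 changed by -2.27 and Krt5, the basal keratin, by -0.82, while Krt14 was at -0.23 and did not pass. Krt15 was at -0.90 (10.60, 10.26 and 10.52, then 9.60, 10.56 and 8.54), with overlapping days. Of 41 cornified envelope and barrier genes 19 fell, 5 of them called, and none rose, with a median of -0.72. Filaggrin, Flg, which bundles keratin filaments, was at 11.98, 11.45 and 12.28 and then at 7.53, 9.02 and 6.04 (change -4.37, SE 0.51, adjusted p = 1.6e-06), after a day 0 mean of 8.83. Loricrin, Lor, a main protein of the envelope, changed by -2.53 (13.88, 13.29 and 13.77, then 11.06, 12.27 and 10.02). Casp14, the caspase that processes filaggrin, changed by -2.30 on its brighter probe set (means of 12.08 and 9.78) and by -0.30 on its dimmer, which did not pass. Involucrin, Ivl (-2.01), and repetin, Rptn (-1.89), fell too, and so did the desmosomal Dsg1a (-1.40) and Dsc1 (-1.43).

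For comparison with the promoters above, those of Krt10 at chr11:99389365-99389614 on the minus strand, Flg at chr3:93273296-93273545 on the plus strand and Lor at chr3:92083143-92083392 on the minus strand are printed the same way.
Krt10: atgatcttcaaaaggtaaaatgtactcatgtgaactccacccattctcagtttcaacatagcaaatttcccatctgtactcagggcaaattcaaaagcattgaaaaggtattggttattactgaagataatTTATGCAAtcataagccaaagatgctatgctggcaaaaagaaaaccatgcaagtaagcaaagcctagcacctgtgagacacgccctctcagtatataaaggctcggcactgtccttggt
Flg: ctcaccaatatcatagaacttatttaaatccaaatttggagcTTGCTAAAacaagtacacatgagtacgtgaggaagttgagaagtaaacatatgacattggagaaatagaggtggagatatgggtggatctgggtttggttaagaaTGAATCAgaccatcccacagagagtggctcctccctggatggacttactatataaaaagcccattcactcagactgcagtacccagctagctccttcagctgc
Lor: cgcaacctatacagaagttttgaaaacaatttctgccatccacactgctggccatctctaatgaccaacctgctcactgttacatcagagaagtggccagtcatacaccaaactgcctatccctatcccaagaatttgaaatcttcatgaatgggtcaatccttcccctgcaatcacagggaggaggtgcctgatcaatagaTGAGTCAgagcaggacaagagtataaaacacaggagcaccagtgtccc
Krt10 held C/EBP letters 119 bases before its start, Flg AP-1 letters 103 and C/EBP letters 208 bases before it, and Lor AP-1 letters 48 bases before it. Of 35 barrier genes with a promoter in the table, 7 held the AP-1 letters (20% against 7.8% of all genes), 6 the C/EBP letters (17.1% against 10.8%), 1 the ISRE letters (2.9% against 3.5%) and 0 the NF-κB letters, which 1.4% of all genes hold.

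Other epidermal genes had differences that did not pass the test. Krt6a, a keratin of stressed epidermis, was at 13.62, 13.58 and 12.83 and then at 13.74, 13.69 and 13.84 (change 0.41, adjusted p = 0.65), after a day 0 mean of 8.56. The late envelope genes Lce3a (0.08), Lce3c (0.07) and Lce3f (0.09) did not pass, nor did the kallikrein Klk7 (0.12) and the transglutaminase Tgm1 (0.21). Of the other stress keratins Krt17 was at 0.65 (adjusted p = 0.036), and of 8 small proline-rich proteins Sprr1a was at 0.98 (adjusted p = 0.036). Krt17 did not pass without any 1 of 5 arrays, all but WT day 2 replicate 1, and Sprr1a without any 1 of the 6. Sprr2f was at 12.75, 12.68 and 11.69 and then at 13.49, 13.32 and 13.91, a change of 1.20 (adjusted p = 0.20).

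Of 18 antimicrobial and protease-inhibitor genes of the epidermis 6 rose and 4 fell. The acute phase proteins Saa2 (3.37), Saa1 (2.77) and Saa3 (1.63) and the peptidoglycan-binding Pglyrp1 (1.95) were called higher, and Wfdc12 (-1.86) and Serpinb12 lower. The epidermal growth factor ligand Ereg was called lower at -2.73 (10.44, 9.52 and 10.70, then 6.94, 8.13 and 7.41), while Tgfa (0.95) and Hbegf (0.88) rose. Of 12 genes of this family 3 rose, and 1 without WT day 2 replicate 3. Of 46 cell cycle genes none rose and 3 fell, Nusap1 (-1.15), Kif11 (-1.06) and Kif23 (-0.81), with a median of -0.25. Over all genes 9.72% fell. The count of 3 was 9 without WT day 4 replicate 2, 1 without WT day 4 replicate 1, and 0 without WT day 2 replicate 2 or WT day 4 replicate 3. The other probe sets of these genes did not pass, at -0.19 for Nusap1, -0.74 and -0.64 for Kif11 and -0.56 for Kif23. Of 19 AP-1 and immediate early genes 5 rose and none fell, led by Nr4a3 (1.33) and Fosl1 (0.97), and 3 rose without WT day 4 replicate 1 or WT day 4 replicate 3. The dimmer probe set of Nr4a3 was at -0.20 and that of Fosl1 at 0.51, and neither passed.

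**Figure D4:**
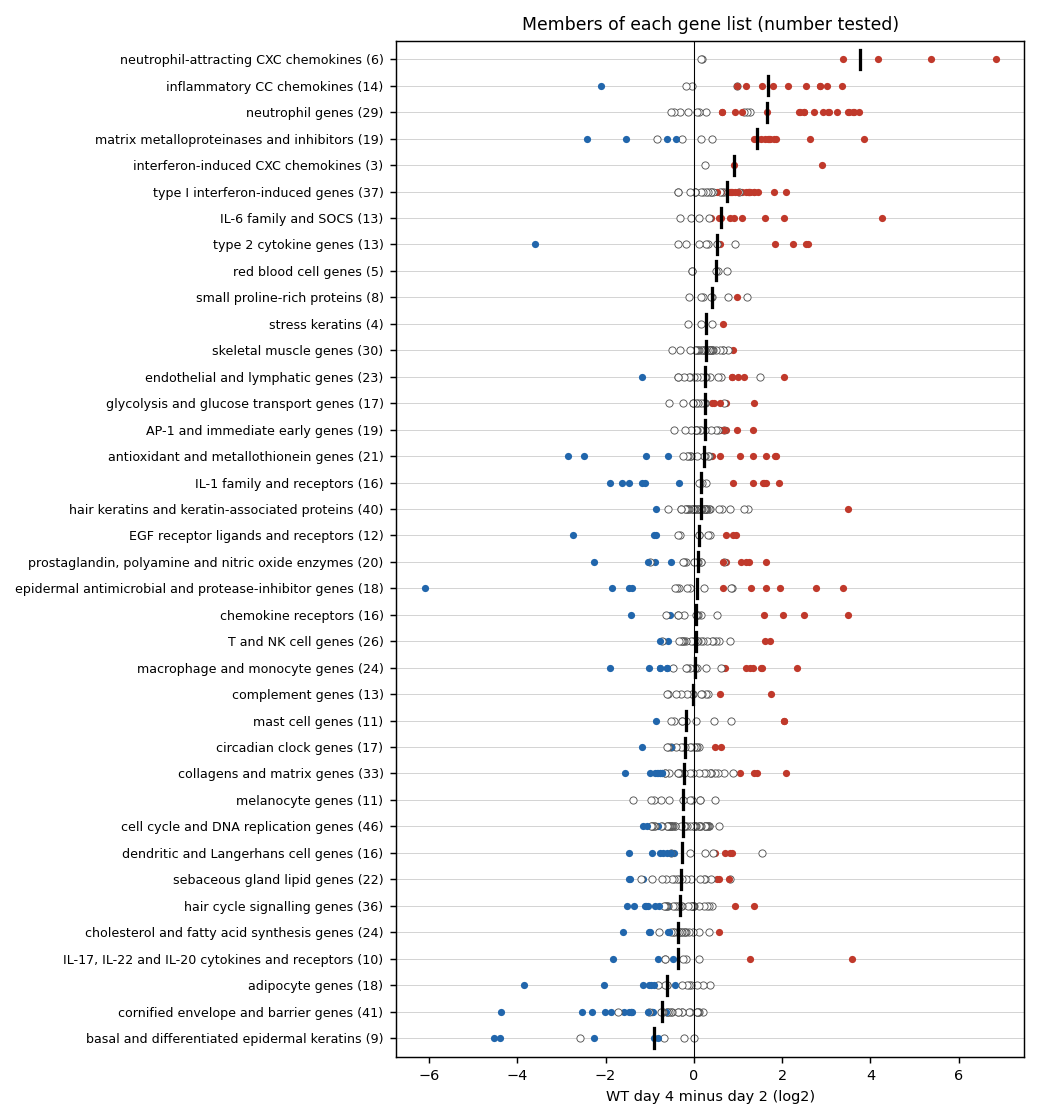
Change from day 2 to day 4 in WT skin (log2, x axis) for each tested gene of the 38 lists, 1 point a gene. Red and blue points rose or fell at an adjusted p under 0.05, open points did not pass, and black bars are medians, which run from 3.77 for the neutrophil-attracting CXC chemokines to -0.90 for the epidermal keratins.

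Of 19 metalloproteinases and inhibitors 11 rose, 8 of them called, and 4 fell, with a median of 1.42. Mmp13, a collagenase, was at 6.83, 7.42 and 7.08 and then at 10.73, 10.73 and 11.44 (change 3.86, SE 0.45, adjusted p = 1.7e-06). The inhibitor Timp1 rose by 2.62 (10.15, 11.21 and 9.74, then 13.03, 12.83 and 13.09), whereas Timp3 (-1.54) and Mmp11 (-2.43) fell. The 4 that fell were 2 without WT day 2 replicate 3, WT day 4 replicate 1 or WT day 4 replicate 3. Of 33 collagens and matrix genes 4 rose, among them osteopontin, Spp1 (2.09), and tenascin C, Tnc (1.42), and 9 fell, among them Thbs2 (-1.57) and Col14a1 (-0.99). The 9 were 5 without WT day 2 replicate 1 or WT day 2 replicate 2 and 3 without WT day 4 replicate 3, and the 4 were 2 without WT day 4 replicate 3. Podoplanin, Pdpn, of lymphatic endothelium and activated keratinocytes and stroma, rose by 2.04 (9.74, 9.73 and 10.10, then 11.57, 11.49 and 12.60). The endothelial selectin Sele (1.13) rose and von Willebrand factor, Vwf (-1.18), fell. Without WT day 2 replicate 3 Sele was at 0.94 (adjusted p = 0.063), and 3 endothelial and lymphatic genes rose in place of 6 of 23.

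Several genes of lipid metabolism and adipocytes were among the largest decreases. Cyp2e1, a cytochrome P450, was at 12.31, 11.31 and 12.84 and then at 7.22, 7.30 and 5.42 (change -5.51, SE 0.61, 45.5-fold, adjusted p = 8.7e-07), and was at 11.82 again at day 6. The adipokine Serpina12, vaspin, was at 9.48, 8.53 and 9.89 and then at 4.49, 5.56 and 3.78 (change -4.69, SE 0.40, adjusted p = 3.6e-08). Thrsp, which promotes lipogenesis, spread widely at day 4, at 7.41, 10.45 and 6.29 after 12.22, 11.58 and 11.93 (change -3.86, SE 0.63, adjusted p = 0.00012). Of 18 adipocyte genes 7 fell and none rose, with a median of -0.60, among them Pck1 (-2.03), resistin, Retn (-1.15), and adiponectin, Adipoq (-1.01). The 7 were 4 without WT day 2 replicate 1, 3 without WT day 4 replicate 3, and 10 without WT day 4 replicate 2. Of 24 genes of cholesterol and fatty acid synthesis 7 fell, led by fatty acid synthase, Fasn (-1.60), 1 rose and 16 did not pass. The 7 were 2 to 4 without WT day 2 replicate 1, WT day 2 replicate 2, WT day 4 replicate 1 or WT day 4 replicate 3, and Fasn was at -1.20 (adjusted p = 0.069) without the last. Skeletal muscle genes, markers of the muscle layer under the skin, had a median of 0.28 with 1 of 30 past the test (none without any 1 of 5 arrays, all but WT day 2 replicate 1), and their summed intensity was 97957 to 109428 at day 2 and 118621 to 139529 at day 4. Their part in the lipid gene changes was not tested.

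Further changes were in single genes of other lists. The metallothioneins Mt1 (1.83) and Mt2 (1.63) and heme oxygenase, Hmox1 (1.86), were called higher, and Mt4, of differentiated epithelium (-2.48), and Gsta2 (-2.85) lower. The prostaglandin-degrading enzyme Hpgd fell by 2.27 (10.12, 10.58 and 10.19, then 7.82, 8.30 and 7.97), and the prostaglandin-forming Ptgs2 rose by 1.63 with overlapping days (6.64, 8.25 and 6.15, then 8.54, 8.03 and 9.35). Krt75, a keratin of the hair follicle, rose by 3.49 (6.56, 6.06 and 6.31, then 9.67, 9.01 and 10.72). Of the 40 genes in the hair keratin list 1 other passed, Selenbp1 at -0.87, by its name a selenium-binding protein and not a keratin. Selenbp1 did not pass without any 1 of WT day 2 replicate 3, WT day 4 replicate 1 and WT day 4 replicate 3. Of 36 hair cycle signalling genes 9 fell, 5 without WT day 4 replicate 3, and 2 rose, including the keratinocyte growth factor Fgf7 (1.37). Of 17 glycolysis genes 5 rose, 8 without WT day 2 replicate 2 and 3 without WT day 2 replicate 3 or WT day 4 replicate 3. No melanocyte gene of 11 passed, and 1 rose without WT day 4 replicate 1. No red blood cell gene of 5 passed. Of 22 sebaceous lipid genes 3 fell, among them the fatty acid elongase Elovl6 (-1.44), and 3 rose, none or 1 of which passed when any 1 array was left out. Of 20 prostaglandin, polyamine and nitric oxide enzymes 6 rose and 4 fell, 2 without WT day 4 replicate 1. Of 13 complement genes 2 rose, among them the C5a receptor C5ar1 (1.75), and 1 fell, and Cfp at 0.59 was the other that rose. Leaving out WT day 2 replicate 1, WT day 2 replicate 3, WT day 4 replicate 1 or WT day 4 replicate 3 left 1 of these 2. Of 17 clock genes 2 rose and 2 fell, and 4 fell without WT day 4 replicate 2, 1 without WT day 2 replicate 3, and 0 when WT day 4 replicate 3 was left out. These counts stand beside 8.23% of all genes that rose and 9.72% that fell. The D6 gene Ccbp2 was at 7.07, 6.78 and 7.76 and then at 8.01, 7.60 and 7.78, a change of 0.60 (adjusted p = 0.11) on its brightest probe set, while its other probe sets were at 0.46 (adjusted p = 0.18) and, the dimmest, at 0.86 (adjusted p = 0.019).

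To see where the WT change differed from that of D6-deficient skin over the same days, the 2 changes, which share no array, were set against each other in the same fit. The difference was called in 100 probe sets (0.278%), 90 with the more positive change in WT (0.250%) and 10 with the more negative (0.0278%), and at the adjusted p alone in 303 (0.841%). By the brightest probe set of each gene it was called in 62 genes (0.349%), 55 more positive (0.309%) and 7 more negative (0.0394%). Without WT day 2 replicate 1 it was called in 57 probe sets, and without WT day 2 replicate 3 in 66. Among the brighter arrays alone D6-deficient skin had 1 array at each of these days. A count there therefore cannot decide whether the differences hold. Type I interferon-induced genes were a large group among the genes with a called difference. In WT skin 20 of 37 rose and none fell, with a median of 0.74, and in D6-deficient skin the median was -0.71. In 15 of the 37 the difference was called, each with the more positive change in WT. The paper had listed Irf7, Ifit2, Oasl1 and others of these on the same arrays as over 3-fold higher in D6-deficient skin at day 2. Those day 2 levels enter the difference, so the count describes these genes and is no independent evidence.

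Irf7, the transcription factor that amplifies interferon production, was at 7.29, 7.44 and 7.47 at day 2 and 8.50, 8.05 and 8.45 at day 4 in WT skin, a rise of 0.93 (adjusted p = 0.0093). Its D6-deficient mean was already 10.65 at day 2 and changed by -1.83, so that the difference between the changes was 2.76 (SE 0.34, adjusted p = 0.00011). Oasl1, of the oligoadenylate synthetase family, rose by 1.82 in WT (5.81, 5.61 and 5.76, then 7.92, 7.13 and 7.58) and changed by -1.01 in D6-deficient skin. Ifit2, an antiviral effector, did not change past the test in WT (-0.35, adjusted p = 0.29), and the difference of 2.57 (adjusted p = 3.8e-05) stood against a D6-deficient change of -2.93. Iigp1, a GTPase, had the largest WT increase of the list, 2.09 (10.28, 9.47 and 10.78, then 12.54, 11.99 and 12.26), with no called difference. Cxcl10, another interferon target, rose by 0.91 in WT and changed by -2.20 in D6-deficient skin (difference 3.11, adjusted p = 3.7e-05). Its WT change was 0.65 (adjusted p = 0.084) without WT day 2 replicate 2, 0.80 (adjusted p = 0.058) without WT day 4 replicate 1 and 0.94 (adjusted p = 0.14) among the brighter arrays.

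**Figure D5:**
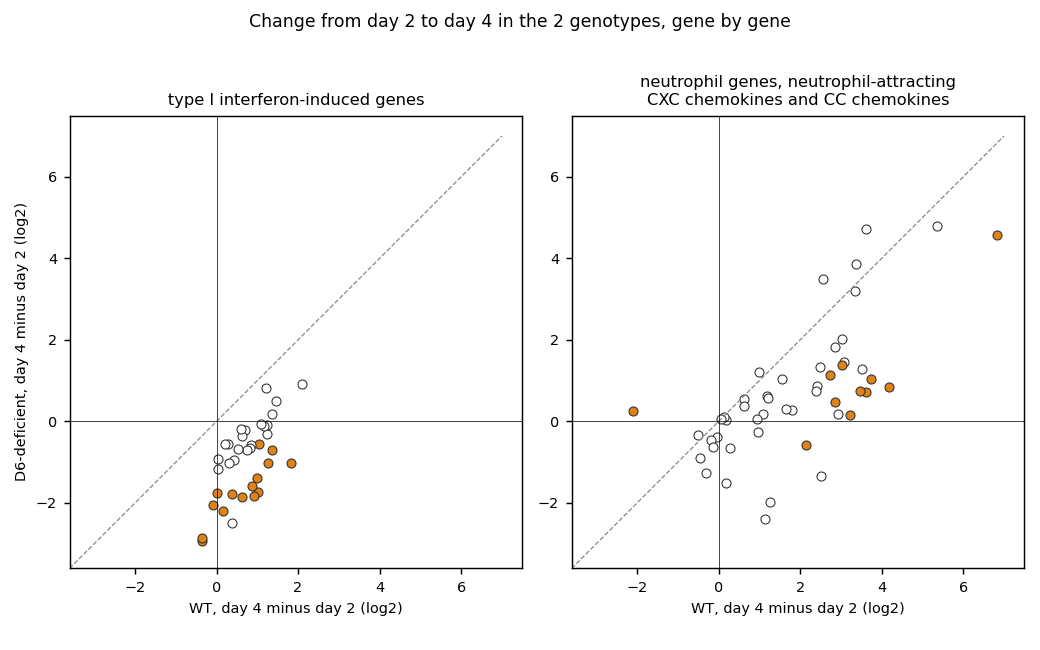
Change from day 2 to day 4 (log2) in D6-deficient skin (y axis) against that in WT skin (x axis), 1 point a gene, with equal changes on the dashed line. Filled points are genes in which the difference was called, 15 of 37 in the interferon panel, and all 37 points of that panel lie below the line, a more positive change in WT. The D6-deficient levels of day 2, by which the paper picked out some of these genes, enter that difference.

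Neutrophil genes rose more in WT than in D6-deficient skin in 6 of 29 cases by this test. The median changes of the list were 1.65 (WT) and 0.30 (D6-deficient). Clec4e is an example, with a D6-deficient mean of 10.24 at day 2, above the WT mean of 6.92, and a D6-deficient change of 0.16 against 3.23 (difference 3.07, SE 0.61, adjusted p = 0.012). For Cxcl5 the D6-deficient means were 7.45 and 12.01 and the WT means 4.64 and 11.48 (difference 2.28, SE 0.52, adjusted p = 0.031). The difference was not called for other genes of large change, among them Il6 (4.25 and 4.10, difference 0.15, SE 0.55), Ppbp (5.36 and 4.80, difference 0.57, SE 0.38), Krt10 (-4.53 and -5.19, difference 0.65, SE 0.59) and Serpinb12 (-6.10 and -6.70, difference 0.60, SE 0.56). None of the barrier genes or epidermal keratins tested had a called difference. Over all genes the share was only 0.349%, so the absence of calls says little about these lists. Genes with a more negative change in WT included Cd207 (-1.47 against 1.53), Ccl20 (-2.10 against 0.26) and the probe set shared by Il22 and Iltifb (-1.15 against 2.68).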

How the data were processed

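Whole dorsal skin from 3 WT mice at day 2 and 3 at day 4 after TPA was measured on 1 array each. The authors normalised the arrays by robust multiarray analysis (RMA) and deposited linear intensities, without the base-line transformation that the methods describe. RMA includes a quantile step, which can hide a shift of all transcripts, although array medians still ran from 5.64 to 5.80 on the log2 scale. The lower 20% of probe sets by mean were left out (9008, besides 64 controls), as in the methods. log2 intensities of all 30 arrays were fitted with limma 3.58.1 in R 4.3.3 (lmFit and eBayes, 1 mean per genotype and day, no block), and p values were adjusted by Benjamini-Hochberg over all probe sets tested. The methods give unpaired t tests. The code was tested on simulated arrays. Figures were drawn in Python 3.11.15 with matplotlib 3.10.9. Symbols are those of the file. Tested probe sets with several symbols (685) or none (3421) stayed in the fit and out of the gene lists. Promoters were matched by symbol.

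The genes named are the 12 largest increases and decreases among non-overlapping called genes, up to 6 members of each of 38 lists by change among those past the adjusted p (the 2 of largest change where fewer than 2 passed), the cytokines and interferon genes plotted in the paper, Ccbp2, and the 5 largest differences from D6-deficient mice each way. Other list members were named after their values were seen. The members and lists were chosen with earlier results of these data known. Some members of these lists are not reported here by name. A second deposited text, a sample sheet, gave no values. It served to match the column of a WT day 6 array, whose header lacked the letter for the day. The number of arrays limits the precision: an exact permutation test of 3 against 3 cannot give a two-sided p under 0.1.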

Additional observations from a re-analysis of the deposited data

Results flagged for a closer look

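In 37 of the named genes the change from day 2 to day 4 differed between WT and D6-deficient skin by more than 3-fold at an adjusted p under 0.05 (limma, interaction of genotype and day). Over all probe sets tested the share was 0.278%, and over genes 0.349%. Some of the 37 were named for this difference itself, or because the paper picked them out by genotype at day 2. The count is therefore no evidence of how common such differences are. Each value below is the WT change less the D6-deficient change on the log2 scale.

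Among chemokines the difference was 2.28 for Cxcl5, 3.34 for Cxcl3, 3.11 for Cxcl10, 2.39 for Ccl4 and 2.72 for Ccl3, and -2.37 for Ccl20. Among neutrophil and macrophage genes it was 2.94 for Olfm4, 2.69 for Fpr1, 2.91 for Fpr2, 2.74 for Mmp8, 3.07 for Clec4e, 2.18 for Fcgr4, 2.45 for Fcgr1, 3.15 for Arg1 and 2.50 for Spp1.

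Among interferon-induced genes it was 2.83 for Oasl1, 2.07 for Dhx58, 2.27 for Rtp4, 2.76 for Ifit1, 2.49 for Rsad2, 2.57 for Ifit2, 2.76 for Irf7, 2.37 for Oasl2, 2.47 for Oas1a, 2.35 for Ifit3, 2.16 for Usp18, 1.76 for Ddx60 and 1.60 for Oas2. The largest positive differences outside these lists were 3.26 for Slfn4, 3.39 for Gm14446 (now Ifit1bl1), 3.64 for H28 (now Ifi44l) and 4.20 for Reg1. Reg1 was at 4.73, 7.32 and 4.67 and then at 6.68, 7.44 and 7.25 in WT, and H28 at 3.67, 7.01 and 6.96 and then at 5.52, 7.02 and 6.69, so that the days overlapped in both. The H28 difference did not pass without any 1 of WT day 2 replicate 1, WT day 4 replicate 2, WT day 4 replicate 3 and each of the 6 D6-deficient arrays.

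The negative differences were -2.99 for Cd207, -1.59 for Elovl6, -3.83 for the probe set shared by Il22 and Iltifb, -3.01 for Olah and -1.93 for Orm1. The Il22 and Iltifb probe set was at 6.00, 5.02 and 3.75 and then at 3.55, 3.95 and 3.81 in WT.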

How the results depend on the processing

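The 24 genes of largest change kept their direction under all alternatives run. Leaving out arrays could not turn it, since the genes were taken from those in which the days do not overlap. Of the 24, 21 passed the adjusted p under every alternative but the dimmer arrays. Of 197 named probe sets past the test, all kept their direction, 40 passed under every alternative and 113 under every one but the dimmer arrays, which are 1 against 1.

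The 417 calls (246 higher, 171 lower) became 5239 (2578, 2661) with no fold threshold, 1289 (658, 631) at more than 2-fold, 140 (103, 37) within the dimmer arrays, and 47 (32, 15) by the methods' t-test after Benjamini-Hochberg, against 407 at their unadjusted threshold. The 100 called differences from D6-deficient mice became 303, 224 and 5 under the first 3 of these, 14 within the brighter arrays and 62 with 1 probe set per gene. The sets of arrays were fitted singly after seeing the data. Within the brighter arrays D6-deficient skin had 1 array at day 2 and 1 at day 4, and within the dimmer arrays WT skin did. The counts of differences within these sets therefore cannot decide whether the differences hold.

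Leaving out each array gave 345 to 553 calls, 207 to 296 higher and 132 to 257 lower, the last without WT day 4 replicate 2, and 57 (without WT day 2 replicate 1), 66 (without WT day 2 replicate 3) to 134 differences. With median centring 415 were called, and the median of all changes moved by 0.0294.

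Deviations of same-numbered arrays correlated at 0.02, -0.13 and 0.18, against at most 0.24, 0.11 and -0.08 with other numbers. With so few arrays these values cannot decide whether the replicate number marks a pairing. With the replicate block 418 were called (408 in the arrays of the comparison alone), and 102 differences (70).

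Some changes that did not pass turned sign, and none passed with the sign turned. Within the brighter arrays Ifi44 was at -0.51, Ddx60 at -0.09 and H28 at -0.88. Within the dimmer arrays Alas2 was at -0.26 and Ifi27l2a at -0.00, while Ifi44 was at 2.18 and H28 at 3.35 (adjusted p = 0.033). The H28 difference from D6-deficient mice ran from 1.91 (brighter) to 6.61 (dimmer). Leaving out each array in turn gave Ifi44 from -0.35 to 0.77, H28 from -0.58 to 1.09, Il15 from -0.09 to 0.21, Ifi27l2a from -0.09 to 0.15 and Ddx60 from -0.14 to 0.11. The causes were not tested.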
